A study of Mus musculus with 235 samples.

Results

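The response of DBA/2J liver to isoniazid was measured on 8 arrays, 4 from mice given isoniazid and 4 from mice given vehicle, out of 235 arrays from 31 inbred mouse strains. The members were the arrays whose titles name DBA/2J liver, and no measured value was used to choose them. Isoniazid is an antibiotic against tuberculosis that can injure the liver. DBA/2J is a classical inbred strain, used here without any genetic change, and the submitters coded it as 1 of 13 strains in which isoniazid caused steatosis, the storage of fat in liver cells. All mice were females of 8 to 10 weeks. The isoniazid group received 100 mg/kg by oral gavage once daily for 3 days, and the vehicle group received sterile water in the same way. RNA of the left liver lobe, collected 24 h after the final dose, was hybridised to Affymetrix arrays, 1 array per animal, so each value below comes from a separate mouse. The other 30 strains (227 arrays) and, among them, the other 12 steatosis strains (95 arrays) received the same treatments and serve as the comparison. Inbred animals of 1 strain share their genome, so the spread between them does not include genetic variation.

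Liver takes up fatty acids, makes new ones, joins them to glycerol and either stores the triglyceride in droplets or exports it in lipoproteins. Scd1 introduces the double bond of the monounsaturated fatty acids used for storage, and CIDE and perilipin proteins coat the droplets. Liver also makes cholesterol, and the genes of that pathway are switched on together by the factor SREBP2 when sterols in the endoplasmic reticulum fall. Isoniazid is a hydrazide that is acetylated by N-acetyltransferases, hydrolysed by amidases, and able to bind pyridoxal phosphate, the active form of vitamin B6, which many aminotransferases need. Hepatocytes secrete most plasma proteins, so they hold a large endoplasmic reticulum whose translocation, glycosylation and folding machinery is adjusted to demand.

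Before the results, 1 array has to be set apart. The array of vehicle animal 4 had a narrower spread of log2 values (SD 2.128) than the other 7 DBA/2J arrays (2.244 to 2.321), as did 20 arrays of other strains. Against vehicle animals 1 to 3, its genes at log2 10 or more lay 0.17 lower at the median (-0.17), and its genes under log2 5 lay 0.26 higher. Its correlation with the other vehicle arrays was 0.9565 to 0.9675 across genes, while every other pair within a DBA/2J group had 0.986 to 0.9907. Counts of genes are therefore given with all 8 arrays and without vehicle animal 4, and genes whose call was lost without it are named as such. Each of the 8 arrays resembled the remaining DBA/2J arrays more than any other strain (r 0.967 to 0.983, against 0.925 to 0.953 for the next strain). Albumin (Alb), the main hepatocyte product, lay at 14.40 to 14.51 on all 8 arrays. The vehicle arrays were scanned in scans 1, 4, 7 and 10 and the isoniazid arrays in scans 10, 3, 3 and 8, so only scan 10 held both groups, with vehicle animal 4 and isoniazid animal 1.

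Isoniazid raised more genes than it lowered in DBA/2J liver, but this imbalance rested on vehicle animal 4. With all 8 arrays, 1045 of 18146 genes (5.76%) passed an adjusted p of 0.05 in limma, 828 higher (4.56%) and 217 lower (1.2%). Of these, 401 rose and 130 fell at least 1.5-fold. Without vehicle animal 4, 447 genes passed (2.46%), 242 higher (1.33%) and 205 lower (1.13%), and 390 genes passed both ways, 232 higher and 158 lower. The count also moved to 418 without isoniazid animal 3 and to 678 without isoniazid animal 2. A fit of the 8 arrays alone, without the spread pooled over the other strains, called 12 genes: Scd1, Psat1, Pgm3, Dleu2, 1810055G02Rik, Tkfc, Dnase2a, Cyp26a1, Iigp1, Rsad2, Acot1 and Cidec. The 4 isoniazid values lay wholly above or below the 4 vehicle values for 1176 genes (6.48%), and 625 genes (3.44%) both passed and did not overlap. Within scan 10, 1031 of the 1045 genes differed in the same direction between isoniazid animal 1 and vehicle animal 4, a pair that is part of the comparison itself. With scan as a term in the model, 1134 genes passed. The median change over all genes was 0.01 log2 units. Each count of called members in a gene list below stands beside these shares of all genes, 4.56% higher and 1.2% lower.

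**Figure D1:**
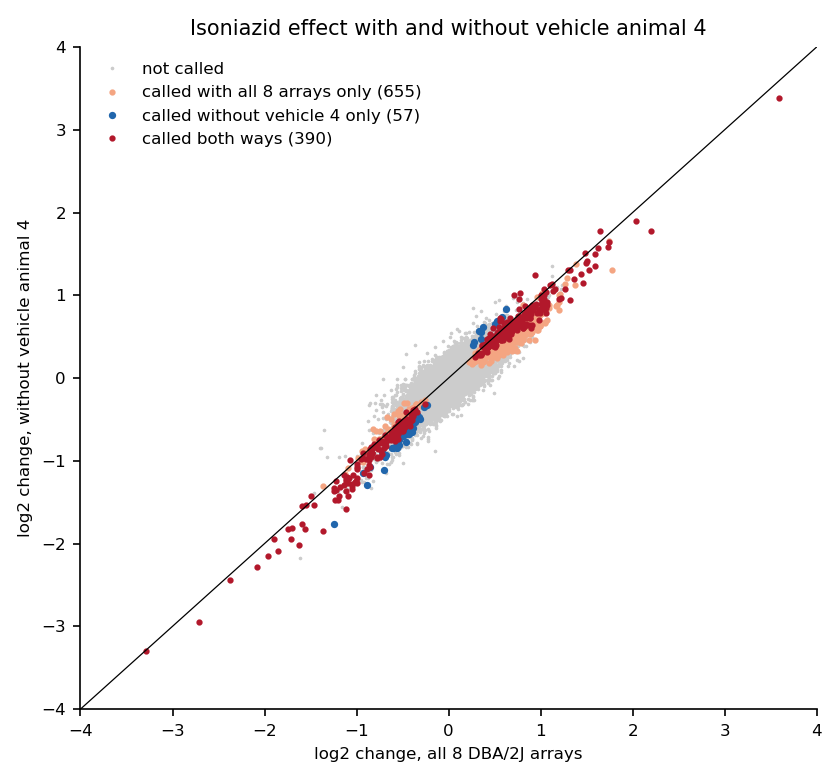
Each point is 1 of 18146 genes, with its log2 change (isoniazid minus vehicle) from all 8 DBA/2J arrays on the x axis and without vehicle animal 4 on the y axis, and the line marks equal values. The 390 genes called both ways reach from Scd1 at -3.29 to Psat1 at 3.59, and most genes called only with all 8 arrays lie between 0 and 1 on the x axis and below the line.

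Scd1 had the largest fall of all called genes, and the acyl-CoA thioesterases Acot1 and Acot2 fell as well. Scd1, the desaturase, read 12.21, 11.99, 13.20 and 12.44 log2 units in the vehicle mice and 8.89, 9.86, 9.08 and 8.84 in the isoniazid mice. Every isoniazid value lay below every vehicle value, and the change was -3.29 ± 0.45 (SE), a 9.78-fold fall (adjusted p 5.8e-08, and -3.30 without vehicle animal 4). The second Scd1 probe set fell by 2.80. Only 1 of the other 30 strains had a larger fall of Scd1, whose mean change in them was -1.44. The rest of the fatty acid synthesis list did not follow. Of its 20 measured members, Scd1 fell, Elovl6 rose and 18 did not pass, with a median change of -0.08 against 0.01 over all genes. Elovl6, the elongase that extends palmitate, rose by 0.99 (adjusted p 0.00906), but by 0.81 without vehicle animal 4 (adjusted p 0.108). Fasn, the fatty acid synthase, changed by -0.20 (adjusted p 0.77) and Srebf1, the lipogenic transcription factor, by -0.13 (adjusted p 0.869), and both groups overlapped for both genes.

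Acot1, a cytosolic enzyme that frees fatty acids from coenzyme A, read 9.46, 8.99, 9.01 and 8.88 with vehicle and 6.50, 7.18, 5.58 and 7.60 with isoniazid. The groups did not overlap, isoniazid animal 3 was the lowest, and the change was -2.37 ± 0.40 (adjusted p 1.22e-05, and -2.44 without vehicle animal 4). No other strain had a larger fall, and Acot1 was lower in all 30 of them. CBA/J, another steatosis strain, was close at -2.33. The DBA/2J difference from the mean of the 30 did not pass in limma (adjusted p 0.153). Acot2, the mitochondrial relative of Acot1, fell by 1.96 (adjusted p 0.000123), also the largest fall of the 31 strains, although its second probe set changed by 0.25. Here too CBA/J was close (-1.86), and the difference from the other strains did not pass in limma (adjusted p 0.341). Acot1 and Acot2 belong to the PPAR alpha and fatty acid oxidation list. There 4 of 28 measured genes fell, 1 rose and 23 did not pass (median -0.08), beside 1.2% lower and 4.56% higher over all genes. The other falls were Ehhadh, a peroxisomal oxidation enzyme (-1.08, adjusted p 0.000602), and Acaa1b, the peroxisomal thiolase (-0.67, adjusted p 0.00578), and both also passed without vehicle animal 4. Cpt1a, which carries fatty acids into mitochondria, rose by 0.44 (adjusted p 0.0301), but not without vehicle animal 4 (adjusted p 0.257), and its other probe sets changed by -0.86 and -0.20. Fgf21, a hormone induced by this pathway, changed by 0.56 (adjusted p 0.641).

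Few lipid droplet genes passed. Cidec, which enlarges droplets by fusing them, read 4.40, 5.11, 4.54 and 4.28 with vehicle and 5.62, 6.23, 6.78 and 6.68 with isoniazid. The groups did not overlap, and the change was 1.74 ± 0.37 (adjusted p 0.000505, and 1.64 without vehicle animal 4). The vehicle level of Cidec in DBA/2J was 0.85 below the mean of the other strains (adjusted p 0.0409, and 0.275 without vehicle animal 4). Of the 25 measured genes of the droplet list, Cidec and Cideb rose, none fell and 23 did not pass (median 0.19), against 4.56% of all genes called higher. Cideb (0.53) did not pass without vehicle animal 4 (0.36, adjusted p 0.308). Plin2, the main droplet coat protein of hepatocytes, was higher in all 4 isoniazid mice (11.93 to 12.38) than in any vehicle mouse (11.29 to 11.79), but its change of 0.57 did not pass (adjusted p 0.0845). Pparg, a fat storage factor, changed by 0.00 (adjusted p 1), and Cd36, a fatty acid carrier, by 0.40 (adjusted p 0.545).

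Apoc2, the activator of lipoprotein lipase, had vehicle values of 11.02, 11.16, 11.33 and 10.73 and isoniazid values of 11.71, 11.90, 12.08 and 12.25. The groups did not overlap, and Apoc2 rose by 0.92 ± 0.13 (adjusted p 8.68e-08, and 0.82 without vehicle animal 4). Apoa5, which regulates plasma triglyceride, rose by 0.42 (adjusted p 0.00014) with no overlap. Apoa4, a lipoprotein component that rises with hepatic triglyceride export, rose by 1.46 (adjusted p 1.99e-05), and vehicle animal 2 at 13.00 reached the lowest isoniazid value of 12.95. In the same list of 22 measured genes, 3 fell and 16 did not pass (median 0.02). The falls were the fatty acid and bile acid CoA ligases Slc27a5 (-0.49, adjusted p 3.93e-06) and Slc27a2 (-0.26, adjusted p 0.0319), and Lcat, the plasma cholesterol esterifying enzyme (-0.30, adjusted p 0.0221). Of these 6, Lcat alone did not pass without vehicle animal 4 (adjusted p 0.0822).

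**Figure D2:**
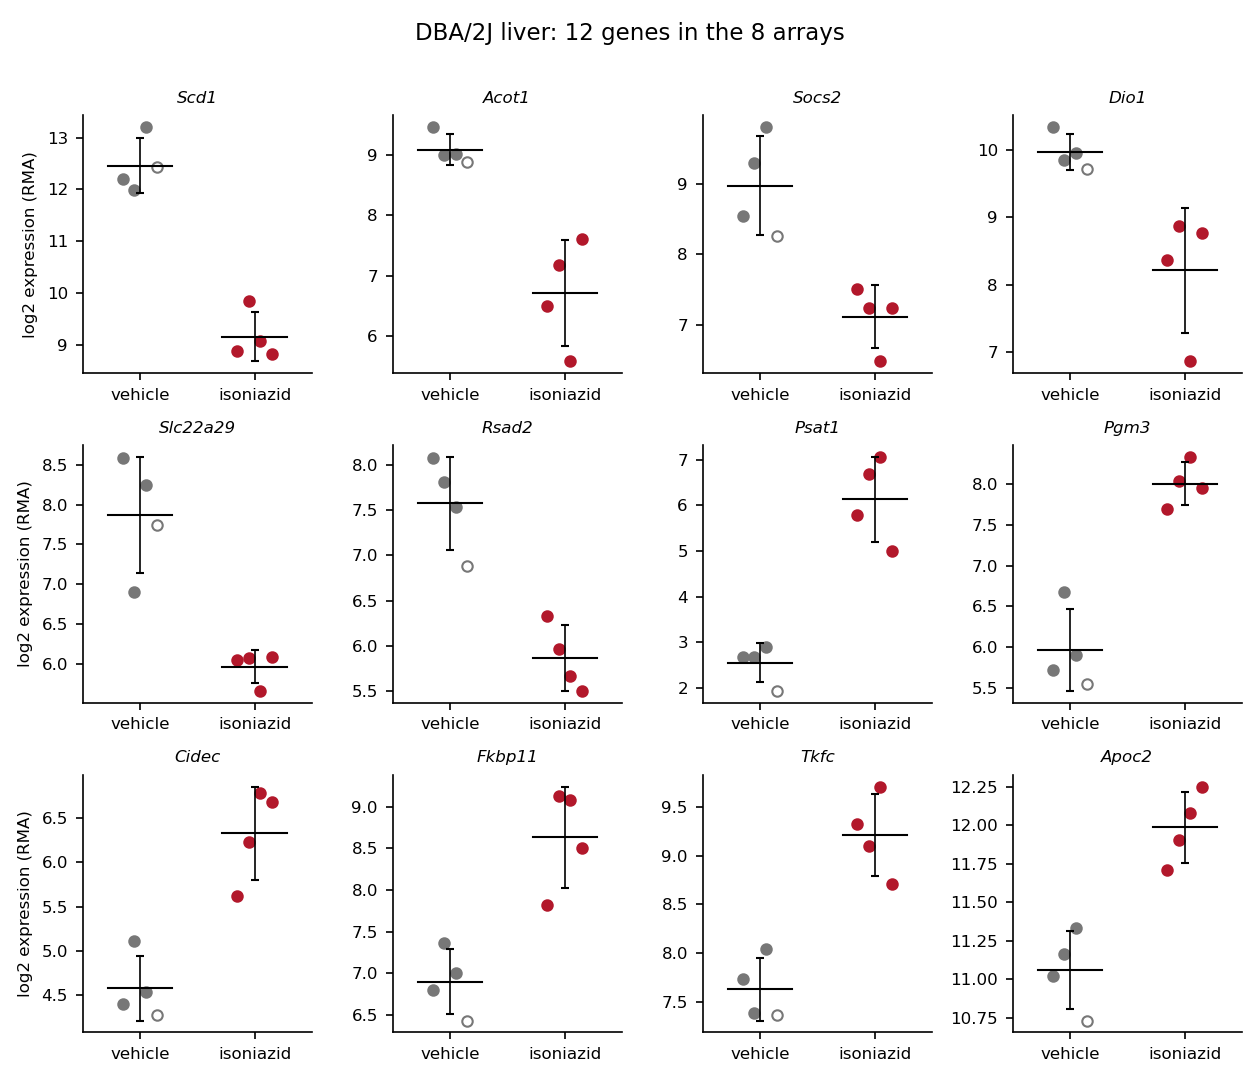
Points are the log2 expression values of 12 genes on the 4 vehicle (grey) and 4 isoniazid (red) arrays of DBA/2J liver, the open circle is vehicle animal 4, and the bars give the mean and SD of each group. In each panel the groups do not overlap, with the widest gap for Scd1 and Psat1.

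Part of the cholesterol synthesis genes fell in DBA/2J. Of the 20 measured members of the list, 6 fell, none rose and 14 did not pass, with a median change of -0.79 (-0.91 without vehicle animal 4). Over the other 30 strains the median of the mean changes was 0.27. Idi1, the isopentenyl isomerase, read 9.02, 6.77, 10.00 and 7.50 with vehicle and 5.21, 7.60, 6.11 and 8.13 with isoniazid. Vehicle animals 1 and 3 were high and isoniazid animals 1 and 3 were low. Of the remaining mice, both isoniazid mice lay above both vehicle mice, opposite to the fall of the means, and the groups overlapped. Idi1 changed by -1.56 ± 0.50 (adjusted p 0.0409, and -1.83 without vehicle animal 4). The same animals were highest and lowest, and the same remaining mice lay opposite to the means, for Cyp51, the lanosterol demethylase, at 7.69, 6.20, 8.24 and 5.45 with vehicle and 4.34, 6.25, 5.25 and 6.29 with isoniazid. Its change was -1.36 ± 0.44 (adjusted p 0.0444, and -1.85 without vehicle animal 4). Hmgcs1, which makes the precursor of mevalonate, changed by -1.05 (adjusted p 0.0285), and of its 5 probe sets 4 fell by 0.81 to 1.14 while 1 changed by -0.04. Tm7sf2, a sterol reductase, was the list's only called gene without overlap between the groups, at 9.70 to 10.07 with vehicle and 8.47 to 9.28 with isoniazid (-1.14 ± 0.23, adjusted p 0.000196).

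The remaining called members were Pmvk, phosphomevalonate kinase (-0.86, adjusted p 0.00203), and Insig1, which retains the SREBP complex in the endoplasmic reticulum (-0.89, adjusted p 0.0385, and 0.0945 without vehicle animal 4). Several members with changes of similar size did not pass. Msmo1 changed by -1.14 (adjusted p 0.125), Sqle, the squalene epoxidase, by -1.24 (adjusted p 0.139), Fdps by -1.05 (adjusted p 0.108) and Nsdhl by -0.90 (adjusted p 0.127). Sqle passed without vehicle animal 4 (-1.76, adjusted p 0.0481). Dhcr7, Lss and Srebf2 changed by 0.02, -0.06 and -0.17, and none of these passed.

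The vehicle mice bear directly on these values, since the same 4 arrays enter both comparisons. In vehicle mice, 12 of the 20 genes were higher in DBA/2J than the mean of the other 30 strains and none was lower, with a median difference of 0.55 (0.69 without vehicle animal 4). The differences were 1.81 for Idi1 (adjusted p 0.000133) and 1.67 for Msmo1 (adjusted p 6.96e-05). After isoniazid the median difference in level from the other strains was -0.18. The mean level of the list was 8.45, 7.41, 9.14 and 7.53 in vehicle animals 1 to 4 and 6.83, 7.80, 7.23 and 7.94 in isoniazid animals 1 to 4. The DBA/2J change was the lowest of the 31 strains for 10 of the 20 genes. Over all 18146 genes it was the lowest or the highest for 850. The ranks of the 20 genes rest on the same mice and are not independent of each other.

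**Figure D3:**
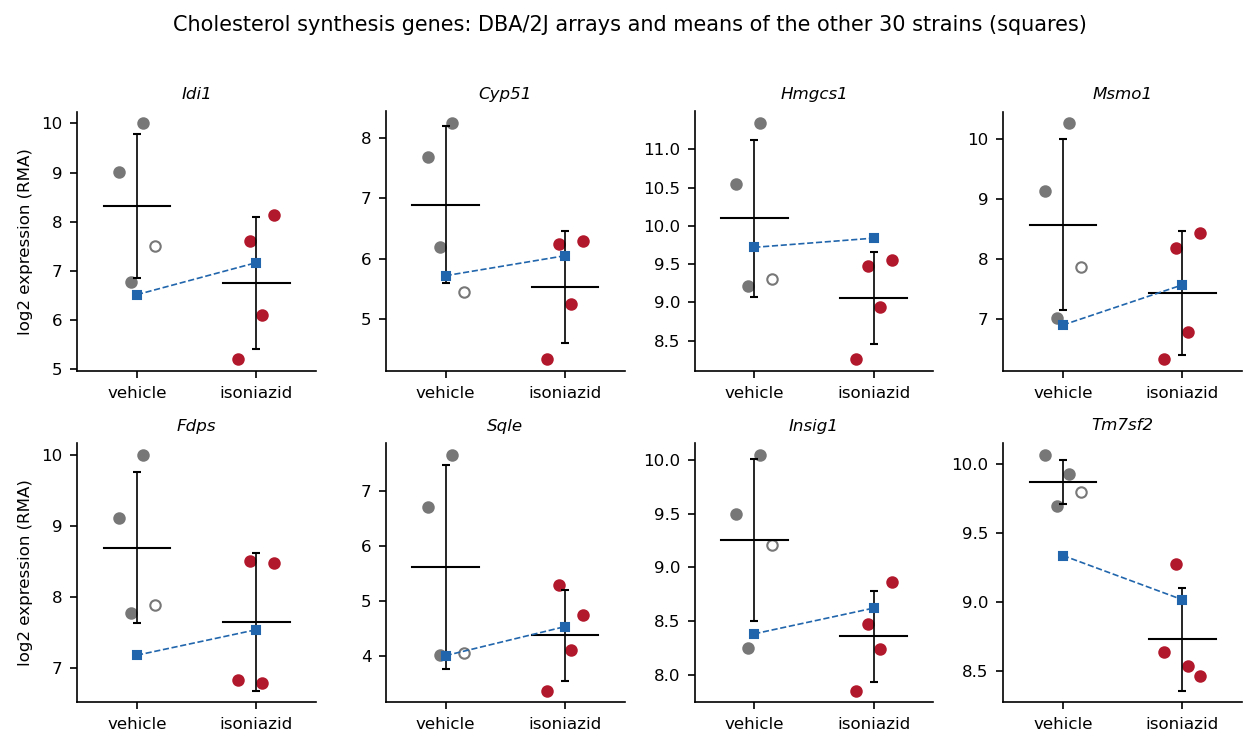
Points are log2 expression values of 8 cholesterol synthesis genes on the vehicle (grey, open for animal 4) and isoniazid (red) arrays of DBA/2J, with group mean and SD, and blue squares joined by a dashed line are the means of the other 30 strains. Vehicle animals 1 and 3 are the highest 2 points in each panel, and the blue lines rise in each panel except Tm7sf2.

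The sterol regulatory element is a DNA motif bound by SREBP factors. The 9-letter form TCACNCCAC was searched on both strands in RefSeq promoter windows of 300 bases (250 before and 50 after the annotated start, GRCm38.p6), a search chosen after the expression values were known. It was present in 1 of the 16 cholesterol genes with a window, Hmgcs1, and in 1.24% of all 32851 windows. The Hmgcs1 window (chr13:119690101-119690400, plus strand) is shown because Hmgcs1 was called and holds this match, in capitals, which starts 137 bases before the annotated start.
Hmgcs1: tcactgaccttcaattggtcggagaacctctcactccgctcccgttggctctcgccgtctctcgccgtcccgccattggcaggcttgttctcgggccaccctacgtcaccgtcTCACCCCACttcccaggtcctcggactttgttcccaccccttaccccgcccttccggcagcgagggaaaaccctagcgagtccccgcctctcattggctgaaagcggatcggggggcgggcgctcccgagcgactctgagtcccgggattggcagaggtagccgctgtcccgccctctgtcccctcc

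Among enzymes that use pyridoxal phosphate, the serine synthesis enzyme Psat1 rose. It read 2.68, 2.68, 2.90 and 1.93 with vehicle, below the array medians of 3.994 to 4.184 and not shown to be above background, and 5.79, 6.69, 7.06 and 4.99 with isoniazid. All 4 isoniazid mice were far above the vehicle mice, and the change was 3.59 ± 0.70 (adjusted p 0.000177, and 3.38 without vehicle animal 4). Because of these low vehicle values no fold is given. The second Psat1 probe set rose by 1.98. In the other strains the change of Psat1 ran from -2.06 to 4.02, and 3 of them exceeded DBA/2J. Psph, the next enzyme of the pathway, rose by 0.68 with no overlap (adjusted p 0.0367, and 0.285 without vehicle animal 4), and Phgdh, the first enzyme, changed by -0.22 (adjusted p 0.755).

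Of the 28 measured genes of vitamin B6 handling and pyridoxal phosphate enzymes, 5 rose, 2 fell and 21 did not pass (median 0.18). Over all genes 4.56% were called higher and 1.2% lower. Csad, which makes hypotaurine on the way to taurine, read 8.65 to 9.48 with vehicle and 7.73, 7.76, 6.79 and 7.72 with isoniazid. Every isoniazid mouse was below every vehicle mouse, and animal 3 was the lowest. Csad fell by 1.46 ± 0.40 (adjusted p 0.014, and 0.0307 without vehicle animal 4), with a mean change of -1.39 in the other strains. Aox3, an aldehyde oxidase, fell by 1.02 (adjusted p 0.00931), from a vehicle level that was 2.27 below the mean of the other strains (adjusted p 1.37e-20). Sequence differences between strains under the probes were not examined here, which bears on every level compared between strains. The aminotransferases Gpt, Agxt2 and Got2 rose by 0.54, 0.55 and 0.25, and Alas1, which starts heme synthesis, rose by 1.02 (adjusted p 0.0356). None of these 4 passed without vehicle animal 4, although the change of Alas1 was 1.03 then (adjusted p 0.0896). Alas1 was the only called gene of the 14 measured in heme synthesis and breakdown, a share close to that over all genes (5.76%).

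Some genes of fructose use and of the hexosamine pathway, which supplies sugars for protein glycosylation, rose. Pgm3, the phosphoacetylglucosamine mutase, read 5.72, 6.68, 5.91 and 5.55 with vehicle and 7.69, 8.04, 8.33 and 7.95 with isoniazid. The groups did not overlap, and the rise was 2.04 ± 0.26 (4.11-fold, adjusted p 3.52e-09, and 1.90 without vehicle animal 4). Nans, the sialic acid synthase, rose by 0.80 (adjusted p 0.00123), with 1 vehicle mouse at 6.69 above the lowest isoniazid value of 6.62. Tkfc, the triokinase of fructose breakdown, rose by 1.59 ± 0.27 (adjusted p 1.32e-05), from 7.36 to 8.04 with vehicle to 8.71 to 9.71 with isoniazid. Of the 17 measured genes of the glycolysis, fructose and hexosamine list, 6 rose, none fell and 11 did not pass (median 0.40). The other 3 were Pklr, liver pyruvate kinase (0.86), Slc2a2, the glucose carrier GLUT2 (0.59), and Pgk1 (0.40). Pklr and Slc2a2 did not pass without vehicle animal 4 (adjusted p 0.115 and 0.226).

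A large group of genes for protein entry into and export from the endoplasmic reticulum rose. Fkbp11, a folding enzyme of that compartment, read 6.80, 7.37, 7.00 and 6.43 with vehicle and 7.82, 9.13, 9.08 and 8.50 with isoniazid. Its rise was 1.73 ± 0.27 with no overlap (adjusted p 2.39e-06, and 1.58 without vehicle animal 4), although its other 2 probe sets changed by -0.01 and -0.04. A list of translocation, N-glycan transfer and vesicle coat genes was added after the values had been seen, so its count is a description. Of its 61 measured members 38 rose, none fell and 23 did not pass, with a median change of 0.47 against 0.01 over all genes. Without vehicle animal 4, 21 rose and the median was 0.38, and in the other 30 strains the median of the mean changes was 0.13.

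Each step was represented. Sec61b, part of the channel that takes nascent proteins into the compartment, rose from 8.75, 9.41, 9.15 and 8.68 to 9.70, 10.30, 10.21 and 9.91 (1.03 ± 0.19, adjusted p 3.9e-05). The channel subunit Sec61a1 rose by 0.63 (adjusted p 0.000516) and the translocon-associated protein Ssr4 by 0.72 (adjusted p 1.05e-05). In the enzyme that attaches N-glycans, Ddost rose by 0.88 (adjusted p 1.24e-06), Rpn1 by 0.84 (adjusted p 0.000434), Krtcap2 by 0.77 (adjusted p 2.18e-05) and Stt3a by 0.67. Sec13, of the COPII coat that buds vesicles toward the Golgi, read 7.71, 8.21, 7.86 and 7.78 with vehicle and 8.51, 9.21, 9.11 and 8.81 with isoniazid. All isoniazid mice were higher, and the rise was 1.02 ± 0.15 (adjusted p 4.81e-07). In the COPI coat, which returns vesicles, Copg1 rose by 1.03 (adjusted p 1.68e-05) and Cope by 0.82 (adjusted p 1.24e-06). The genes named in this paragraph also passed without vehicle animal 4. Other probe sets of some of them changed less, by 0.07 and 0.16 for Ssr4 and by 0.23 and 0.44 for Copg1. Those of Sec61a1 changed by -0.24 to 0.60 and those of Rpn1 by -0.04, 0.16 and 0.75. For Stt3a they changed by 0.01, 1.02 and 1.47, and for Krtcap2 by 0.86.

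Of the 24 measured genes of the classical unfolded protein response list, 4 rose, none fell and 20 did not pass (median 0.38, and 0.39 without vehicle animal 4). Passed or not, 21 of the 24 changes lay above 0 and 3 below, so the list as a whole was shifted upward. The 4 called genes are named next. These 4 were Sdf2l1 (1.39, adjusted p 0.0339, and 0.0959 without vehicle animal 4), Pdia6 (0.65, adjusted p 0.0121), Sec61b and Sec61a1, of which the last 2 also stand in the added list. Pdia6, a disulfide isomerase, read 8.37, 9.42, 8.24 and 8.64 with vehicle and 9.31, 9.83, 9.22 and 8.92 with isoniazid, so the groups overlapped through vehicle animal 2. Hspa5, the chaperone BiP, changed by 0.36 (adjusted p 0.474), Dnajb9 by -0.12 (adjusted p 0.811) and Ddit3, the stress factor CHOP, by 0.20 (adjusted p 0.817). The mean level of the list was 9.80 in vehicle animal 2 and 8.99 to 9.16 in the other vehicle mice. It was 9.58, 10.06, 9.82 and 9.08 in the isoniazid mice, so vehicle animal 2 lay with the isoniazid mice and isoniazid animal 4 with the vehicle mice.

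**Figure D4:**
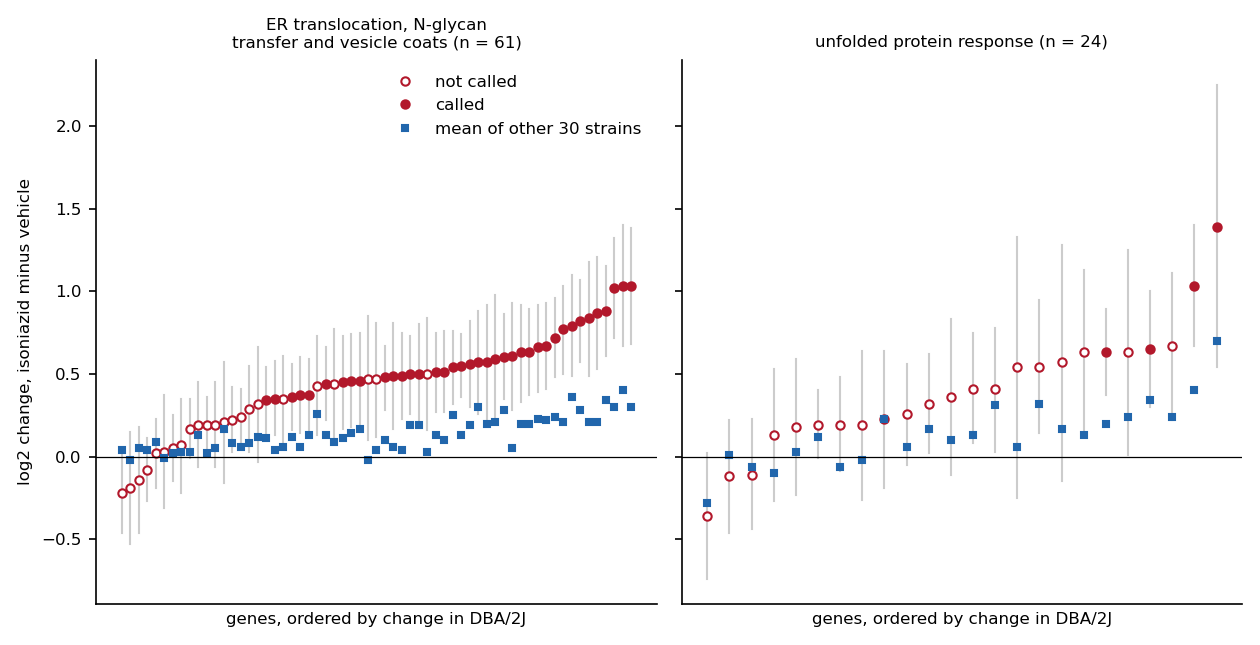
Each circle is the log2 change (isoniazid minus vehicle) of 1 gene in DBA/2J with its 95% interval, filled where it passed, for 61 genes of translocation, N-glycan transfer and vesicle coats (left) and 24 of the unfolded protein response (right), and blue squares are the mean change in the other 30 strains. On the left 38 circles are filled, all above 0, and most lie above the square of the same gene. On the right 4 are filled, and 21 of the 24 circles lie above 0.

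The endoplasmic reticulum stress element is the site bound by the factors ATF6 and NF-Y. This element was searched by its consensus letters on both strands, again after the values were known. It occurred in 9 of 20 unfolded protein response genes with a window (Calr, Canx, Creld2, Derl3, Dnajc3, Hsp90b1, Hspa5, Pdia6 and Syvn1), in 0 of 49 genes of the added list and in 0.119% of all windows. The Pdia6 window (chr12:17266339-17266638, plus strand) is shown because Pdia6 was the one called gene among these 9, with the match in capitals starting 98 bases before the annotated start. A match is a description of letters and says nothing of binding in these livers.
Pdia6: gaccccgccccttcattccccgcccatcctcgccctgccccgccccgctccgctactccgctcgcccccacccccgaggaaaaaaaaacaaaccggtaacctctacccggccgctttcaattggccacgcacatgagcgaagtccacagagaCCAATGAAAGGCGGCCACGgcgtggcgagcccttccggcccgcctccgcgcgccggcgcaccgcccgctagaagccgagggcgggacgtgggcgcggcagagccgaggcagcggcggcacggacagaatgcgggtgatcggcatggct

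Genes of the integrated stress response split. Of 23 measured, 4 rose, 1 fell and 18 did not pass (median 0.10), beside 4.56% higher and 1.2% lower over all genes. Atf5, a transcription factor of stressed hepatocytes, rose by 0.86 (adjusted p 0.000286), and the aminoacyl-tRNA synthetase Eprs rose by 0.68 (adjusted p 0.00014), both also without vehicle animal 4. Trib3 (0.97) and Gars (0.67) rose but did not pass without it (adjusted p 0.291 and 0.373). Chac1, a glutathione-degrading target of ATF4, fell by 1.25 with no overlap (adjusted p 0.00517), from 6.06, 6.66, 7.33 and 6.25 to 5.40, 5.46, 5.25 and 5.17. Asns, another ATF4 target, changed by 0.85 (adjusted p 0.111) and Atf4 itself by -0.25 (adjusted p 0.374). In mitochondria, the protease Lonp1 rose from 7.98, 7.96, 7.97 and 7.60 to 8.68, 8.92, 9.34 and 8.73. All isoniazid mice were higher (1.04 ± 0.15, adjusted p 2.54e-07, and 0.95 without vehicle animal 4). Hspa9, the mitochondrial chaperone that drives protein import, rose by 0.59 (adjusted p 1.66e-05). Of 31 measured subunits of oxidative phosphorylation 6 rose, none fell and 25 did not pass (median 0.16), beside 4.56% of all genes called higher. Only Cox7a2 of these subunits passed without vehicle animal 4.

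Of the 17 measured genes of growth hormone and thyroid hormone signalling 5 fell, 1 rose and 11 did not pass (median -0.30), and without vehicle animal 4 the count was 4 and 0. Growth hormone acts on liver through STAT5, which induces its own feedback inhibitors Socs2 and Cish and represses Bcl6. Socs2 read 8.54, 9.29, 9.80 and 8.26 with vehicle and 7.51, 7.24, 6.49 and 7.25 with isoniazid. The groups did not overlap, and the fall was 1.85 ± 0.50 (adjusted p 0.01, and -2.09 without vehicle animal 4). Of the 6 Socs2 probe sets, 1 other fell by 1.93 and 4 changed by -0.35 to -0.07. Cish read 6.71, 6.68, 7.86 and 6.14 with vehicle and 6.21, 6.08, 5.54 and 5.88 with isoniazid, overlapping only through vehicle animal 4 (-0.92 ± 0.26, adjusted p 0.0145).

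Igfals, the liver-made carrier subunit of circulating IGF1, fell by 0.93 (adjusted p 0.0492, and 0.0785 without vehicle animal 4), while Igf1 changed by -0.11 (adjusted p 0.674). The other Igf1 probe sets changed by -0.33, -0.55 and -0.66, and none of these passed. Bcl6, a transcriptional repressor, had vehicle values of 6.48, 5.39, 5.45 and 5.46 and isoniazid values of 6.14, 7.51, 6.81 and 7.48. It rose by 1.29 ± 0.39 (adjusted p 0.0257, and 0.107 without vehicle animal 4), the highest change of the 31 strains. The difference of Bcl6 from the mean of the other strains did not pass in limma (adjusted p 0.0797). Dio1, the deiodinase that activates thyroid hormone and is itself a target of it, fell from 10.34, 9.85, 9.95 and 9.72 to 8.36, 8.87, 6.86 and 8.77. All isoniazid mice were lower, animal 3 by most (-1.75 ± 0.40, adjusted p 0.00181, and -1.83 without vehicle animal 4).

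A STAT5 site has the core letters TTCNNNGAA. They occurred in 4 of the 14 genes of this list with a window (Bcl6, Cish, Igfals and Klf9). Counted by window, that was 6 of 22, beside 8.3% of all windows. These 4 genes are among the list's 6 called genes, but the search was chosen after the values were known, so this is a description. Socs2 was not among the genes with a match. Here too a match says nothing of binding in these livers. Of these 4 genes Bcl6 rose and the other 3 fell. The windows of Cish, chosen as a feedback inhibitor induced by STAT5 (chr9:107296409-107296708, plus strand), and of Bcl6, repressed by it (chr16:23988803-23989102, minus strand), are shown together, with the letters in capitals. In Cish 2 matches lie 0 and 11 bases from the annotated start, and in Bcl6 the match starts 118 bases before it.
Cish: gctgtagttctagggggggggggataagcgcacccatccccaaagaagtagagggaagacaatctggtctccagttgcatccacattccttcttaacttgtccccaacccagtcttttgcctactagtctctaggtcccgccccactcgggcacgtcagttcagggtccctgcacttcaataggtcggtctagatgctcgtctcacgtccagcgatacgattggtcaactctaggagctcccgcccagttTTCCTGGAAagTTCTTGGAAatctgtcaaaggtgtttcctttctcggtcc
Bcl6: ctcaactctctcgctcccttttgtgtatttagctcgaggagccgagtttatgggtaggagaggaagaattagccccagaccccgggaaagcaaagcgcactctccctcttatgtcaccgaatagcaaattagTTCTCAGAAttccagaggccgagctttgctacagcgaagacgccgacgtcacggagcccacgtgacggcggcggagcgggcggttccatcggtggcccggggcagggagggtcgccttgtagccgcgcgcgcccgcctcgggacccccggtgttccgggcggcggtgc

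Of 23 measured interferon-induced genes, 5 fell, none rose and 18 did not pass (median -0.37, and -0.56 without vehicle animal 4). In the other 30 strains the median of the mean changes was -0.29, and no member differed from them. In vehicle mice 4 members were higher in DBA/2J than the mean of the other strains and none was lower (median difference 0.27). Rsad2, the antiviral protein viperin, read 8.08, 7.81, 7.54 and 6.88 with vehicle and 6.33, 5.96, 5.67 and 5.50 with isoniazid. The isoniazid and vehicle values were separate (-1.71 ± 0.29, adjusted p 1.58e-05), and its 3 probe sets fell by 1.17 to 1.77. Ifit1 fell by 1.63 (adjusted p 0.00417), Ifit3 by 1.00 (adjusted p 0.00476), the GTPase Iigp1 by 1.00 (adjusted p 0.00203) and Irf9, a subunit of the interferon-activated complex, by 0.83 (adjusted p 0.016). None of the 5 overlapped, and all 5 passed without vehicle animal 4. Markers of macrophages (15 genes), T and NK cells (11), B cells (9) and neutrophils (9) had no called member in either direction, and the mean macrophage level was 6.53 to 7.30 with vehicle and 6.73 to 7.04 with isoniazid. In a bulk sample, fewer cells of a type and less RNA per cell cannot be told apart.

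In the acute phase list of 28 measured genes, 3 fell, none rose and 25 did not pass (median -0.22), beside 1.2% of all genes called lower. Crp, C-reactive protein, fell from 11.51, 11.55, 11.58 and 11.64 to 11.10, 11.19, 10.63 and 11.15 (-0.55 ± 0.12, adjusted p 0.00147). Saa4, a constitutive serum amyloid, fell by 0.94, and Mt2, a metal-binding metallothionein, by 0.98. Saa4 and Mt2 did not pass without vehicle animal 4 (adjusted p 0.0753 and 0.103).

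Of the 25 measured genes of bile acid synthesis and transport 4 rose, 2 fell and 19 did not pass, beside 4.56% higher and 1.2% lower over all genes. Without vehicle animal 4 the count was 3 and 0. Cyp8b1, which sets the share of cholic acid, rose by 0.89 (adjusted p 0.00591) and Cyp7b1, of the alternative synthesis route, by 1.13 (adjusted p 0.00207). The uptake carrier Slco1a4 rose by 1.06 (adjusted p 0.000874), and all 3 passed without vehicle animal 4. Cyp27a1 (-0.51) and the carrier Slco1b2 (-0.67) fell, with adjusted p of 0.0501 and 0.051 without vehicle animal 4. Cyp7a1, the rate-limiting enzyme of the classical route, was higher in all 4 isoniazid mice (10.53 to 10.67) than in the vehicle mice (9.67 to 10.45), but its change of 0.64 did not pass (adjusted p 0.48). Cyp17a1, a steroid hydroxylase, read 9.82, 10.92, 8.03 and 8.80 with vehicle and 7.46, 8.78, 5.73 and 7.28 with isoniazid. It fell by 2.08 ± 0.44 (adjusted p 0.00048, and -2.28 without vehicle animal 4), with overlap through isoniazid animal 2.

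Among genes that act on isoniazid itself or on foreign compounds few passed, as among all genes (5.76%). Of the 20 measured genes for its acetylation, hydrolysis, oxidation and conjugation, Ces1f, a carboxylesterase, fell (-1.09, adjusted p 0.0284, and 0.0772 without vehicle animal 4), and 19 did not pass. Nat1 (0.42, adjusted p 0.251) and Nat2 (0.23, adjusted p 0.513), the acetyltransferases, Ces1d (-0.71, adjusted p 0.129) and Cyp2e1 (-0.11, adjusted p 0.304) were among the 19. Cyp2b10, the standard target of the receptor CAR, read 9.20, 11.26, 8.08 and 9.15 with vehicle and 11.61, 11.10, 11.36 and 10.61 with isoniazid. Vehicle animal 2 lay within the isoniazid range, and the rise of 1.74 ± 0.49 (adjusted p 0.0143) did not pass without vehicle animal 4 (1.65, adjusted p 0.0663). Aldh1a7, the other called gene of the 20 measured CAR and PXR targets, rose by 0.84 (adjusted p 0.00535). None of the 9 measured targets of the aryl hydrocarbon receptor passed.

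The NRF2 and glutathione list held 3 rises, 2 falls and 18 genes that did not pass (median 0.04), beside 4.56% higher and 1.2% lower over all genes. Osgin1, an oxidative stress response gene, fell from 8.87, 8.20, 9.66 and 8.48 to 7.44, 7.04, 6.80 and 7.14. There was no overlap between the groups (-1.70 ± 0.38, adjusted p 0.00139), and Gclm, the modifier subunit of glutathione synthesis, fell by 0.43 (adjusted p 0.0207). Both passed without vehicle animal 4. Srxn1 (1.09), Pgd (0.89) and Txnrd1 (0.50) rose and did not pass without it (adjusted p 0.0519, 0.0902 and 0.191). Nqo1 changed by 0.43 (adjusted p 0.314) and Gclc by -0.21 (adjusted p 0.631).

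Transporters of the hepatic Slc22 organic anion family, a list added after the values were seen, gave 3 falls among 7 measured genes (median -0.51). Slc22a29 read 8.58, 6.90, 8.25 and 7.74 with vehicle and 6.05, 6.07, 5.66 and 6.09 with isoniazid. The isoniazid mice were close together and below every vehicle mouse, and the fall was 1.90 ± 0.32 (adjusted p 1.32e-05, and -1.94 without vehicle animal 4). Slc22a26 fell by 1.49 (adjusted p 0.00249) and Slc22a27 by 1.24 (adjusted p 0.0229), with no overlap. These genes are close relatives, so cross-hybridisation of their probes cannot be told apart from shared change. Slc22a30 (-0.51), Slc22a7 (-0.21), Slc22a8 (-0.14) and Slc22a19 (0.09) did not pass.

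Of 10 pericentral hepatocyte markers 3 fell, none rose and 7 did not pass (median -0.19), beside 1.2% of all genes called lower. Lgr5, a Wnt target of cells around the central vein, read 5.84, 5.77, 5.64 and 5.33 with vehicle and 4.24, 4.21, 5.04 and 4.63 with isoniazid. It fell by 1.11 ± 0.22 with no overlap (adjusted p 0.000198), Axin2, another Wnt target, fell by 0.66 (adjusted p 0.0145), and Rgn, a calcium-binding lactonase, by 0.79 (adjusted p 0.00931). All 3 passed without vehicle animal 4, but the second probe sets of Lgr5 and Axin2 changed by -0.13 and -0.15. Glul, the glutamine synthetase of the same cells, changed by -0.20 (adjusted p 0.543). Of 8 periportal markers Cps1 rose by 0.31 and Cyp2f2 fell by 0.50, and Cps1 did not pass without vehicle animal 4 (0.26, adjusted p 0.155).

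Hnf4a, a master regulator of hepatocytes, fell by 0.48 with no overlap (adjusted p 0.00106), as the single called gene of 8 hepatocyte markers. The bile duct list had Krt8 (0.65) and Krt18 (0.59) called of 9 measured, both of which hepatocytes also express, and neither passed without vehicle animal 4 (adjusted p 0.194 and 0.201). Endothelial, stellate, red cell, adipocyte and pancreas or gut markers had no called member. The mean endothelial level was 6.12, 6.45, 6.22 and 5.34 in vehicle animals 1 to 4 and 5.95 to 6.62 in the isoniazid mice, so vehicle animal 4 was the lowest.

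Other genes among the 14 highest and 14 lowest changes without overlap belonged to none of the groups above. 1810055G02Rik rose from 7.88 to 8.54 with vehicle to 9.28 to 10.05 with isoniazid. 9030619P08Rik fell from 8.27, 7.13, 7.23 and 6.62 to 3.36, 5.86, 3.46 and 5.73 (-2.71 ± 0.59, adjusted p 0.000759), so the isoniazid mice formed 2 pairs. Rad51b, a recombination protein, and Dnase2a, a lysosomal nuclease, each fell by 1.59, and Cyp26a1, which degrades retinoic acid, by 1.55. Among the rises, Ugt2b37, a glucuronosyltransferase, went from 6.26, 5.85, 3.61 and 3.58 to 6.36, 6.32, 7.16 and 8.24. Its vehicle mice lay at 2 separate levels and the upper pair nearly touched the isoniazid mice (2.20 ± 0.49, adjusted p 0.00135). Mlkl, the effector of necroptosis, rose by 1.62 (adjusted p 7.9e-05), from 3.74 to 4.69 with vehicle to 4.99 to 7.08 with isoniazid. The remaining rises were Arsg, a lysosomal sulfatase (1.78), Cgref1 (1.65), Stap1, a signalling adaptor (1.59), Smoc2, a matrix protein (1.53), Nrg4, a growth factor (1.49), and Prg4, lubricin (1.48). Of the genes in this paragraph, Arsg alone did not pass without vehicle animal 4 (1.30, adjusted p 0.115).

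DBA/2J was compared with the mean effect of the other 30 strains to ask where its response stood apart. The other strains had 0 to 2747 called genes (median 79), beside 1045 in DBA/2J and 447 without vehicle animal 4. Across the 18146 genes the DBA/2J change correlated with the mean change of the other strains at Pearson r = 0.58 (Spearman rho 0.45, and r = 0.63 without vehicle animal 4), a description across genes that share the same arrays and are no replicates. Of the 1045 called genes, 1008 had the sign of the mean of the other strains and 37 the opposite sign. All 1008 changed more in DBA/2J than in that mean, but these genes were selected by their change in DBA/2J. The share of matching signs over all genes was not counted. The difference itself passed for 66 genes (0.364%), 55 higher (0.303%) and 11 lower (0.0606%) in DBA/2J, and 65 of the 66 were also called within DBA/2J. For 59 of the 66 the mean of the other strains had the same sign as DBA/2J, and for 7 the opposite sign.

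These 66 genes depended on single arrays. The difference passed for 4 genes without vehicle animal 4 (0.022%), for 4 without vehicle animal 1, for 7 without isoniazid animal 2 and for 0 without isoniazid animal 3 in limma, and for 282 without vehicle animal 2 and 143 without isoniazid animal 4. With scan as a term it passed for 8 genes. Without the 21 narrow-spread arrays it passed for 44, of which 15 were higher and 29 lower, so the balance of directions turned. Against the spread between the strains, with DBA/2J as 1 value and the other 30 as replicates, 0 genes passed in limma (smallest adjusted p 0.401) and 661 (3.64%) had an unadjusted p under 0.05. The 4 genes that passed without vehicle animal 4 were Slc22a29, Idi1, Eif4a2 and Cyp51, all lower in DBA/2J, and the first 3 also passed with all arrays.

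The lower genes included lipid and transport genes. Idi1 changed by -1.56 in DBA/2J and by 0.65 in the mean of the others, a difference of -2.21 (95% interval -3.22 to -1.21, adjusted p 0.0359, and 0.046 without vehicle animal 4), and 23 of the other 30 strains were above 0. Msmo1 differed by -1.81 (adjusted p 0.0447), Insig1 by -1.13 (adjusted p 0.0461) and Scd1 by -1.85 (adjusted p 0.0398), and these 3 did not pass without vehicle animal 4. Slc22a29 differed by -1.60 (interval -2.26 to -0.95, adjusted p 0.0155, and 0.046 without vehicle animal 4). Its change in the other strains had a mean of -0.29 and an SD of 0.35, and DBA/2J was the lowest of 31. Eif4a2, an RNA helicase of translation initiation, differed by -0.67 (adjusted p 0.0363, and 0.046 without vehicle animal 4). The thiamine carrier Slc19a2 (-0.82), the regulator Sertad1 (-0.76) and Crp (-0.50) also differed.

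Dnase1, a secreted nuclease, differed by -0.90 (adjusted p 0.048), but its vehicle values were 3.12, 3.32, 5.05 and 3.16, so 1 mouse was high. The same vehicle animal 3 read 6.61 for Cltrn, an amino acid transport protein, against 1.93 to 2.01 in the other vehicle mice, and 5.54 for Spink1, a trypsin inhibitor, against 3.00 to 3.22. The part of other tissue in that sample was not tested, and the 8 measured pancreas and gut markers had a mean of 5.65 in that mouse and 5.45 to 5.86 in the other 7.

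The higher genes included the secretory and mitochondrial genes described above. A difference from the mean of the other strains does not make a rise particular to DBA/2J. For 27 of the 66 genes, which were selected by that difference, DBA/2J was at the extreme of the 31 strains. Over all 18146 genes it was at the extreme for 850. In NZW/LacJ, also a steatosis strain, Fkbp11 (2.36), Pgm3 (2.38), Sec13 (1.20), Copg1 (1.17) and Lonp1 (1.06) rose more than in DBA/2J. Cope rose most in DBA/2J (0.82), but by nearly as much in LG/J (0.80), another steatosis strain. Of the added secretory list, 8 of 61 members differed and all 8 were higher: Ssr4, Ddost, Krtcap2, Sec13, Sec24d, Copg1, Cope and Arf1, by 0.42 to 0.73. Lonp1 differed by 0.82 (interval 0.51 to 1.12, adjusted p 0.0063), Hspa9 by 0.43 and Tomm40l, related to the import pore of the outer mitochondrial membrane, by 0.74. The stress genes Atf5 (0.69) and Eprs (0.54), the folding enzyme Fkbp11 (1.25) and Pgm3 (1.18) differed as well. Psat1, with its low vehicle values, differed by 2.74 (interval 1.33 to 4.15, adjusted p 0.0481). App, the amyloid precursor protein, rose in DBA/2J from 10.06, 9.98, 9.73 and 9.49 to 10.64, 10.68, 11.24 and 10.70. Elsewhere App was higher in 13 strains, by 0.98 in NZW/LacJ, and lower in 17, with a mean change of 0.02 and an SD of 0.43. The difference was 0.99 (adjusted p 0.00662), but of its 4 probe sets 2 rose by 1.00 and 1.04 and 2 changed by -0.08 and 0.15.

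Wdr86, a WD-repeat protein, rose by 1.00, with a mean of 0.01 and an SD of 0.21 in the other strains (difference 0.99, adjusted p 0.0244). Mlkl differed by 1.30, Prg4 by 1.29, Prim1, a DNA primase, by 0.99, Eef1akmt1, a methyltransferase, by 0.99 and Fam241b by 0.94. Mlkl, Prg4, Prim1 and Eef1akmt1 rose more in NZW/LacJ (1.82, 1.68, 1.54 and 1.40) than in DBA/2J. None of the 55 higher genes passed without vehicle animal 4, and the adjusted p values of App, Wdr86 and Lonp1 were then 0.0512.

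**Figure D5:**
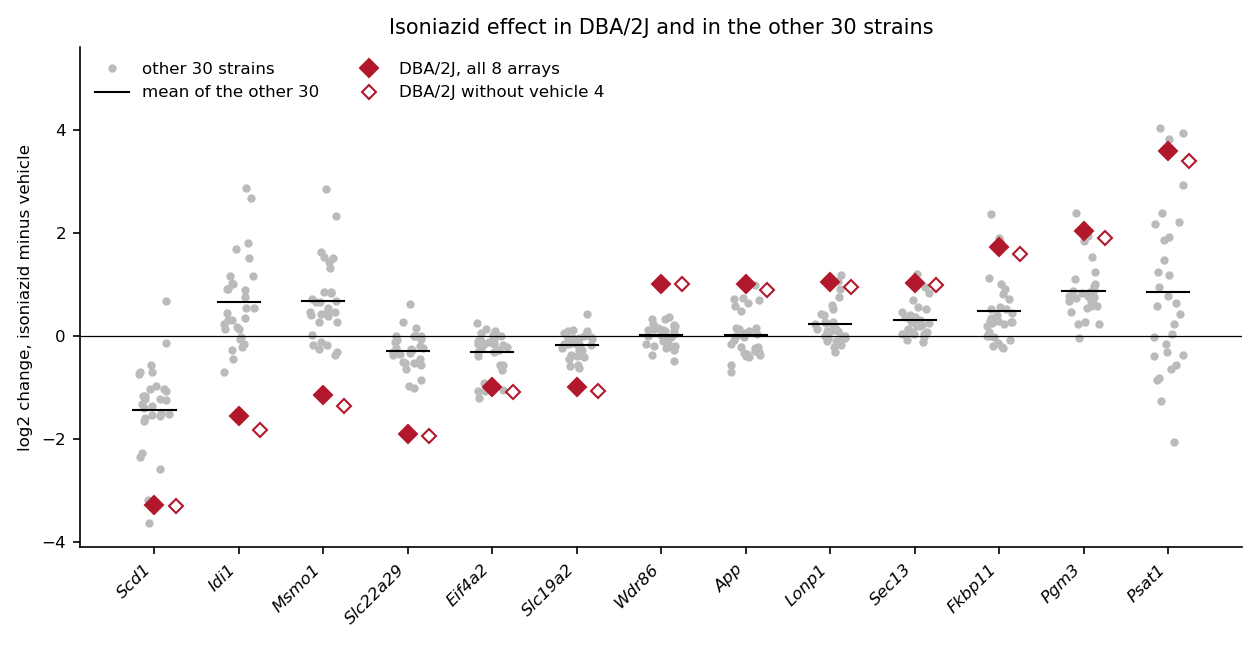
Grey points are the log2 changes (isoniazid minus vehicle) of 13 genes in each of the other 30 strains, black lines their mean, filled red diamonds the DBA/2J change from all 8 arrays and open diamonds that without vehicle animal 4. DBA/2J is the lowest of the 31 strains for Idi1, Msmo1, Slc22a29 and Slc19a2 and the highest for Wdr86 and App, while for Psat1 3 other strains lie above it.

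Restricting the comparison to strains with the same steatosis code left fewer genes. Against the other 12 steatosis strains 5 genes differed (0.0276%): App (0.90), C030034I22Rik (0.95), Lonp1 (0.76) and Wdr86 (1.06) were higher and Slc22a29 (-1.60) was lower in DBA/2J. That is 0.022% of genes higher and 0.00551% lower. C030034I22Rik read 2.08 to 2.35 with vehicle and 2.87 to 3.45 with isoniazid. All of these values lay below the array medians of 3.994 to 4.184 and were not shown to be above background. Of 18146 genes 1767 had an unadjusted p under 0.05, and without vehicle animal 4 no gene passed in limma. Scd1 differed from these strains by -1.57 (adjusted p 0.193), Idi1 by -2.20 (adjusted p 0.067) and Cidec by 0.66 (adjusted p 0.584).

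Vehicle levels set the baseline of each change. DBA/2J vehicle liver differed from the mean vehicle liver of the other strains in 712 genes (3.92%), 249 higher (1.37%) and 463 lower (2.55%). Without vehicle animal 4 there were 416 (2.29%), 262 higher (1.44%) and 154 lower (0.849%), so the excess of lower genes was not kept. Against the spread between strains 3 genes passed (0.0165%), and these were Cltrn, Slc25a31 and Spink1. Cltrn and Spink1 are the genes in which vehicle animal 3 alone was high, and Slc25a31, a mitochondrial ADP/ATP carrier, read 4.19 and 4.33 in 2 vehicle mice and 2.48 and 2.37 in the other 2. Beside Aox3 and the cholesterol genes, Shmt2, the mitochondrial serine hydroxymethyltransferase, was lower in DBA/2J vehicle liver (-0.85, adjusted p 1.02e-11), and Gclm was lower (-0.56, adjusted p 6.71e-07). For Scd1 the vehicle level of DBA/2J was 0.01 from the mean of the other strains (adjusted p 0.996).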

How the data were processed

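Liver RNA of 8 DBA/2J mice (4 isoniazid, 4 vehicle) was read with 227 arrays of 30 other strains. Per the submitters' processing notes, the authors deposited log2 intensities normalized by RMA in Affymetrix Power Tools, whose version is not given in the sources used here. This method summarises probes on a shared distribution, which can compress low signals.

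Of 44721 probe sets, 34717 had 1 gene symbol, 872 several, 9072 none and 60 were controls. Each of 18146 genes was represented by its brightest probe set (by the average of the 235 arrays). limma 3.58.1 (R 4.3.3) was fitted to 62 groups, strain by treatment, so the spread is pooled over all strains, with Benjamini-Hochberg adjustment over all genes and a threshold of 0.05. The code was tested on simulated data. Tables and figures used Python 3.11.15, pandas 2.3.3 and numpy 2.4.6. Arrays give no read depth, so their number limits the precision.

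Genes were named by rule: up to 14 highest and 14 lowest changes without overlap, up to 10 each way for the difference from other strains, up to 4 members per list by size of t, and a set made of interest by the drug or earlier results. Other genes named were chosen after their values were seen. Members and lists were chosen with earlier results of these data known, and 2 lists and the promoter motifs were added after the values were seen. The animal numbers did not pair the samples: the deviations of equal numbers correlated at -0.22, 0.14, 0.25 and -0.01. The highest correlation of any vehicle and isoniazid array was 0.49, for vehicle animal 4 and isoniazid animal 1, which shared scan 10. A part of scan in this value was not tested.

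Alternatives were scan as a term, centred arrays, other probe set rules, a filter on dim genes, trended and robust moderation, a replicate block, the 8 arrays alone, strains as replicates, each DBA/2J array left out and, added later, the 21 narrow-spread arrays left out.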

Additional observations from a re-analysis of the deposited data

Results flagged for a closer look

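In groups of 4, a sample whose gap to the nearest other is large against the group's range was marked by Dixon's test, which chance does for about 1 group in 20. Among vehicle animals, number 4 stood apart for Lonp1 (7.60, others 7.96 to 7.98), Trib3 (7.31, others 8.22 to 8.39), Slc22a19 (3.32, others 2.75 to 2.81) and Slc27a5 (12.62, others 12.73). Vehicle animal 2 stood apart for Ces1d (10.84), Gclc (9.74), Klf9 (12.44), Sec24d (9.38) and Slc22a26 (7.80), vehicle animal 1 for Bcl6 (6.48), and vehicle animal 3 for Cltrn (6.61), Spink1 (5.54) and Dnase1 (5.05). Among isoniazid animals, number 3 stood apart for App (11.24, others 10.64 to 10.70), Crp (10.63), Csad (6.79), Dnase1 (2.61), Slc22a29 (5.66, others 6.05 to 6.09) and Trib3 (9.70). Isoniazid animal 1 stood apart for Eif4a2 (9.49) and Ssr4 (10.74), animal 2 for Derl3 (7.37) and animal 4 for Nrg4 (6.99).

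The DBA/2J change differed from the mean of the other 30 strains, by the interaction test over all genes, for 34 genes named here. The lower ones were Idi1 (-2.21), Scd1 (-1.85), Msmo1 (-1.81), Slc22a29 (-1.60), Insig1 (-1.13), Dnase1 (-0.90), Slc19a2 (-0.82), Sertad1 (-0.76), Eif4a2 (-0.67) and Crp (-0.50). The higher ones of metabolism and stress were Psat1 (2.74), Mlkl (1.30), Prg4 (1.29), Pgm3 (1.18), Lonp1 (0.82), Tomm40l (0.74), Atf5 (0.69), Eprs (0.54) and Hspa9 (0.43). The higher ones of the secretory route were Fkbp11 (1.25), Copg1 (0.73), Sec13 (0.71), Sec24d (0.67), Krtcap2 (0.56), Cope (0.54), Ddost (0.54), Ssr4 (0.48) and Arf1 (0.42). The rest were App (0.99), Wdr86 (0.99), Eef1akmt1 (0.99), Prim1 (0.99), Fam241b (0.94) and C030034I22Rik (0.87). None of them passed against the spread between strains.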

How the results depend on the processing

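The count of 1045 genes in DBA/2J moved to 531 with a 1.5-fold minimum and to 12 with the 8 arrays alone, and lay between 418 and 1440 when 1 array was left out (447 without vehicle animal 4). The 66 genes that differed from the other 30 strains became 43 with the fold minimum, 8 with scan as a term, 37 with each probe set alone, 22 against strains with 4 isoniazid arrays, 0 in limma with strains as replicates (661 at an unadjusted p under 0.05) and 0 to 282 with 1 array left out. The 5 genes that differed from the other 12 steatosis strains became 3 with centred arrays, 8 with each probe set alone, 12 without dim genes, 18 without the narrow-spread arrays, 0 with strains as replicates and 0 to 95 with 1 array left out. The 712 vehicle differences became 313 with the fold minimum, 1087 with each probe set alone, 3 with strains as replicates and 416 to 890 with 1 array left out. With animal number as a replicate block the first 3 counts were 909, 43 and 1. The causes were not tested. Without the 21 narrow-spread arrays, 547 genes rose and 505 fell in DBA/2J. Cpt1a reversed to -0.21 (adjusted p 0.856 in limma) with the mean of its probe sets. Of the called genes named here, 67 passed under every alternative except the 8 arrays alone.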
